A study of Mus musculus with 4 samples.

Results

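The mitochondrial genome transcripts are the RNAs copied from the small circular chromosome inside mitochondria. They were taken as every row of the deposited expression table whose mouse gene symbol, mapped from the Ensembl identifier, starts with mt-. These were 15 of 23763 genes, made up of 13 of 13 annotated messenger RNAs and 2 of 2 annotated ribosomal RNAs. The 22 annotated mitochondrial transfer RNAs were not analysed here, so only messenger and ribosomal RNA could be compared. The samples were 2 spleen libraries of KLHL3 knock-in mice (KLHL3-KI) and 2 of wild-type mice (WT), all C57BL/6J at baseline. KLHL3 is the substrate adaptor of a cullin-3 ubiquitin ligase. No allele, age or sex is stated in the labels, nor whether the libraries of a group are separate animals. The p-values then measure only the spread between these libraries, which may be technical.

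The mitochondrial chromosome is read from both of its strands into long precursor RNAs. The transfer RNAs that lie between most of the other genes are cut out of them, which frees messenger and ribosomal RNAs. No transfer RNA gene lies between mt-Atp8, mt-Atp6 and mt-Co3, or between mt-Nd4l and mt-Nd4. The messenger RNAs encode core membrane subunits of respiratory complexes I, III and IV and of the ATP synthase, and all other subunits come from nuclear genes. All but 1 of the messengers are read from the same strand, the exception being mt-Nd6. Mature red cells have no mitochondria, while their dividing precursors in the marrow and spleen depend on them for haem synthesis.

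RNA was depleted of ribosomal RNA and sequenced with a directional library kit, per the labels' protocols. The recovered reads came to 9586677 and 10933023 in KLHL3-KI and to 8535483 and 8975415 in WT libraries. Values are normalized read counts, and log2 fold changes are KLHL3-KI over WT on the log2(value + 1) scale with their standard error (SE). Klhl3 itself was at 2.53 and 1.36 in KLHL3-KI and at 3.02 and 4.67 in WT libraries, on 14 to 45 reads, and did not pass (limma adjusted p = 0.0895). Its level does not check the label of a knock-in whose allele is not stated. Spleen B cell, T cell and red pulp macrophage markers all had rows, and the summed liver markers and the summed heart and muscle markers stayed under 1 in every library, with 2 of 4 genes of each list having no row. The fat markers summed to 8.81 and 27.7 in KLHL3-KI and to 15.4 and 16.2 in WT libraries. The pancreas markers, 3 of 6 without a row, summed to 14.1 and 16.8 in KLHL3-KI and to 6.60 and 7.37 in WT libraries, and the 1 that was tested rose. Marker RNA of several blood cell types moved with the groups. The 8 erythroid precursor markers summed to 5869 and 6667 in KLHL3-KI, against 1602 and 1273 in WT libraries, and all 8 rose. All 6 dividing cell markers, all 6 neutrophil markers and all 4 platelet markers rose as well, while 6 of 6 T cell and 5 of 6 B cell markers fell. In whole spleen, fewer cells of a type and less RNA per cell cannot be told apart, and the part of these markers' cells in the results below was not tested.

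Many mitochondrial messengers have annotated near-identical nuclear copies, and some neighbours on the mitochondrial chromosome overlap. The sequences are shown because both features limit which row a read can be given to. They come from the GENCODE M21 transcripts of build GRCm38, while the submitters' processing notes name GRCm39, so no coordinates are given. A stretch near the 5′ end of mt-Co2, bases 6 to 65 of the transcript, is set beside the same stretch of the chromosome 1 copy Gm28661 and the chromosome 2 copy Gm13341. Capitals mark the bases at which Gm13341 differs, C25T and G57A counted from 1 at the 5′ end of mt-Co2.
mt-Co2: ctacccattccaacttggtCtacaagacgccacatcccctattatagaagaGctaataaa
Gm28661: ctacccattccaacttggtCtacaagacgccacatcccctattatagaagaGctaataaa
Gm13341: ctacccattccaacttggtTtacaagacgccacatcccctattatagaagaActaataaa

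Gm28661 matched mt-Co2 over all of its 681 bases. The copies of mt-Co3 (Gm28437, 783 bases), mt-Atp6 (Gm10925, 678 bases) and mt-Nd4l (Gm10222, 294 bases) were also identical over their whole length. The copy of mt-Nd3, Gm28438, differed at 1 base of 345, which lies near the 5′ end of the transcript as T3C (capitals).
mt-Nd3: atTaacctgtacactgttatcttcatta
Gm28438: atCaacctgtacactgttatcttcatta

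In that annotation these 5 copies are neighbours on chromosome 1, in the order of the mitochondrial genes, between partial copies of mt-Nd4 (Gm28439) and mt-Co1 (Gm29216). All 5 had a row in the expression table, while the partial copies were not analysed here. For mt-Co2, 3 of 585 windows of 100 bases occurred unchanged in no other annotated transcript. The count was 1 of 685 for mt-Co3, 3 of 582 for mt-Atp6, 6 of 249 for mt-Nd3 and 3 of 198 for mt-Nd4l. By contrast all windows of mt-Nd1, mt-Nd5, mt-Nd6, mt-Cytb, mt-Atp8, mt-Rnr1 and mt-Rnr2 were unique. Such windows do not register less similar copies. Gm11408 matched mt-Nd6 at 93.6% identity over 519 bases, and Gm11410 matched mt-Cytb at 92.9% over 1142 bases. For mt-Nd5, Gm11407 and Gm4076 matched parts at 92.4% and 95.2%. These less similar copies were not analysed here. mt-Nd2 had 96.8%, mt-Co1 69.2% and mt-Nd4 39.2% unique windows. How the authors' counting divided reads between identical sequences is not stated in the labels.

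Overlap within the mitochondrial chromosome was the other limit. The end of mt-Atp8 and the start of mt-Atp6, which encode ATP synthase subunits, share 43 bases, shown in capitals.
mt-Atp8: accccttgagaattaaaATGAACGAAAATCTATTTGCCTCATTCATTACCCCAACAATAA
mt-Atp6: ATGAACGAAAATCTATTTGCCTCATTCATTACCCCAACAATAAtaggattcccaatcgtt

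The end of mt-Nd4l and the start of mt-Nd4 share 7 bases. The ends of mt-Nd5 and mt-Nd6 face each other on opposite strands and overlap by 14 bases, in capitals.
mt-Nd5: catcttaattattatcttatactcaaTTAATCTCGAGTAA
mt-Nd6: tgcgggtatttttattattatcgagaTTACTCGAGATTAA

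The strand difference is visible in the bases of the transcripts. mt-Nd6 held 28.1% G and 5.97% C, while the other 12 messengers held 5.88% to 16.1% G and 22.1% to 29.97% C.

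The 5 mitochondrial rows with copies showed how the reads had been divided. mt-Co2, a catalytic core subunit of complex IV, was at 33.6 and 0 in KLHL3-KI and was listed at 0 in both WT libraries. Its copy Gm28661 was at 2533 and 2527 in KLHL3-KI and at 2233 and 2186 in WT libraries. The mt-Co2 row thus held 305 of 23307 reads of the pair in KLHL3-KI replicate 1. It held 0 of 25953 reads in KLHL3-KI replicate 2, which allows a share of up to 0.0116%, and 0 of 19958 and 0 of 21063 in the WT libraries, which allow up to 0.0150% and 0.0142%. Such limits, and the intervals below, cover counting error only and not the division itself.

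For mt-Co3, the third core subunit of complex IV, the mitochondrial row was at 306 and 532 in KLHL3-KI and at 62.1 and 344 in WT libraries. The groups overlapped, and WT replicate 1 stood apart from the other 3 libraries. The mt-Co3 row held 9.32% (95% Wilson interval 8.99 to 9.66%) and 17.8% (17.4 to 18.2%) of the reads of the pair in KLHL3-KI replicates 1 and 2. In WT replicates 1 and 2 it held 2.13% (1.96 to 2.32%) and 12.6% (12.2 to 13.05%). The copy Gm28437 was at 2976 and 2458 in KLHL3-KI and at 2849 and 2377 in WT libraries, so the larger part of the pair stood on the nuclear name in every library.

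mt-Atp6, the proton channel subunit of the ATP synthase, was at 306 and 385 in KLHL3-KI and at 414 and 398 in WT libraries, lower in both KLHL3-KI libraries. Its copy Gm10925 went the other way, at 1878 and 1637 in KLHL3-KI and at 1492 and 1416 in WT libraries. mt-Nd4l, a small membrane subunit of complex I, was at 41.5 and 36.6 in KLHL3-KI and at 32.3 and 27.8 in WT libraries, higher in both KLHL3-KI libraries. It held 42.5% and 44.3% of its pair in KLHL3-KI and 43.6% and 35.6% in WT libraries, so both names of the pair carried reads everywhere. mt-Nd3, also of complex I, was at 490 and 457 in KLHL3-KI and at 460 and 440 in WT libraries, where the groups overlapped. It kept 100% and 97.5% of its pair in KLHL3-KI and 100% in both WT libraries, although it differs from its copy at a single base.

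**Figure D1:**
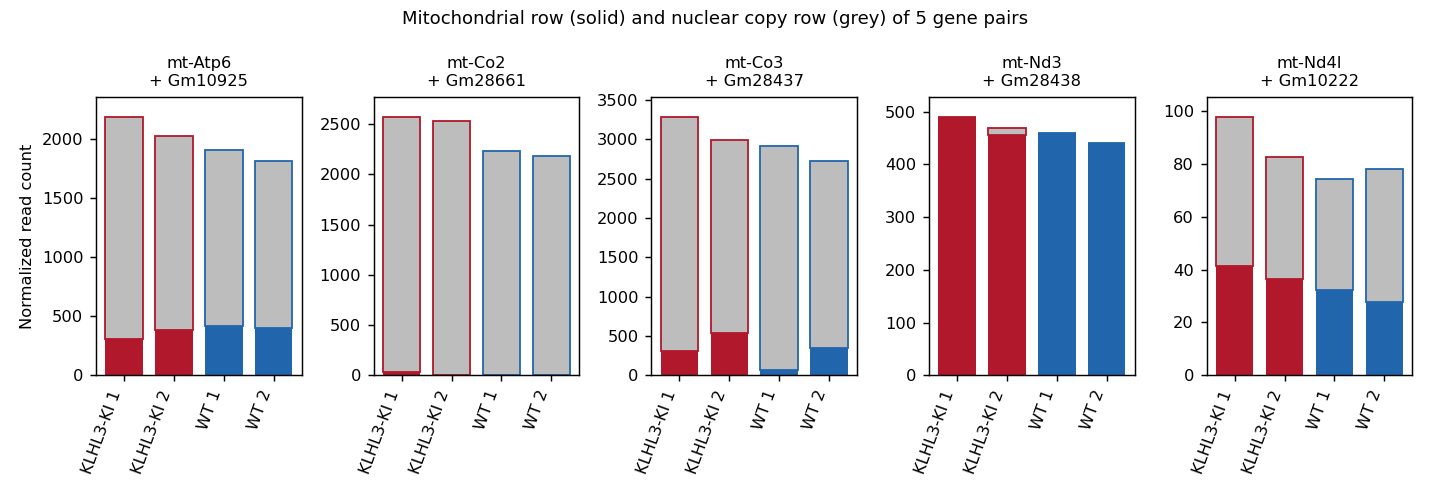
Normalized read counts (linear axis from 0) of 5 mitochondrial rows (solid) and their nuclear copy rows (grey, stacked on top) in the 2 KLHL3-KI libraries (red) and the 2 WT libraries (blue). The stacked totals of mt-Co2 were 2567 and 2527 in KLHL3-KI and 2233 and 2186 in WT libraries, while the solid part of mt-Co3 runs from 62.1 to 532 and that of mt-Co2 from 0 to 33.6.

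Adding each copy to its mitochondrial gene narrowed the replicate gaps of mt-Co2 and mt-Atp6 in KLHL3-KI and of mt-Co3 in both groups. On the log2 scale it also narrowed that of mt-Nd4l in WT, from 0.21 to 0.0726. The gap of mt-Nd3 in KLHL3-KI went from 0.10 to 0.0638, and that in WT stayed at 0.0642. The remaining gaps widened. For mt-Nd4l in KLHL3-KI the gap was 0.24 on the log2 scale after the addition and 0.18 as deposited, for mt-Atp6 in WT 0.0714 and 0.0571, and for mt-Co2 in WT 0.0304 and 0. This step was chosen after the values were seen. mt-Co3 with its copy was at 3282 and 2990 in KLHL3-KI and at 2911 and 2721 in WT libraries. The gap between the WT replicates was 0.10 on the log2 scale after the addition, against 2.45 in the row as deposited. mt-Co2 with its copy was at 2567 and 2527 in KLHL3-KI and at 2233 and 2186 in WT libraries. mt-Atp6 with its copy was at 2183 and 2022 in KLHL3-KI and at 1906 and 1814 in WT libraries. All 3 sums were higher in both KLHL3-KI libraries.

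The levels of the messengers without a copy row were close within each group. In complex I, mt-Nd1, a core membrane subunit, was at 916 and 868 in KLHL3-KI and at 765 and 727 in WT libraries. mt-Nd4, a proton-pumping subunit, was at 1385 and 1303 in KLHL3-KI and at 1134 and 1171 in WT libraries. mt-Nd5, another pumping subunit, was at 863 and 827 in KLHL3-KI and at 740 and 682 in WT libraries. In all 3 the KLHL3-KI libraries stood above the WT libraries. mt-Nd2, a further membrane subunit, was at 393 and 392 in KLHL3-KI and at 351 and 334 in WT libraries. mt-Nd6, a small membrane subunit, was at 51.0 and 49.9 in KLHL3-KI and at 37.6 and 34.4 in WT libraries. The gap within the mt-Nd6 pair was 0.03 on the log2 scale in KLHL3-KI and 0.13 in WT libraries, and the groups did not overlap.

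Outside complex I, mt-Cytb, the cytochrome b of complex III, was at 1061 and 961 in KLHL3-KI and at 897 and 856 in WT libraries. mt-Co1, the catalytic subunit of complex IV with the haem and copper centre, was the most abundant member at 7396 and 6994 in KLHL3-KI and at 6476 and 5949 in WT libraries. mt-Atp8, the small ATP synthase subunit, was the lowest of the messengers without a copy row, at 9.47 and 10.9 in KLHL3-KI and at 8.06 and 7.47 in WT libraries. It rested on 86 and 112 reads in KLHL3-KI and on 72 and 72 reads in WT libraries.

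**Figure D2:**
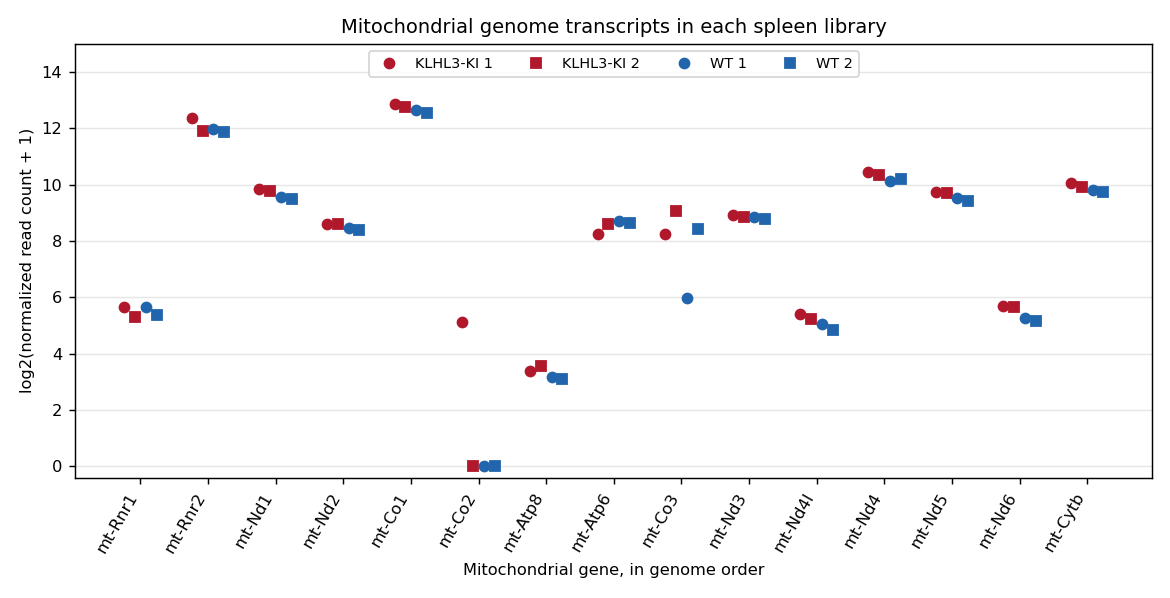
log2(normalized read count + 1) of the 15 mitochondrial rows as deposited, in genome order, with each KLHL3-KI library in red and each WT library in blue. Most genes hold their 4 points close together, mt-Co2 sits at 0 in 3 libraries and mt-Co3 has 1 low WT point.

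The ribosomal RNAs differed between replicates. mt-Rnr2, the large subunit RNA, was at 5238 and 3891 in KLHL3-KI and at 4062 and 3709 in WT libraries. mt-Rnr1, the small subunit RNA, was at 49.6 and 38.8 in KLHL3-KI and at 49.3 and 40.4 in WT libraries. Both groups overlapped for both genes, and replicate 1 was above replicate 2 in each gene and each group. The gap within the KLHL3-KI pair was 0.43 on the log2 scale for mt-Rnr2 and 0.35 for mt-Rnr1, and within the WT pair 0.13 and 0.28. The median gap over the 13 messengers with copies added was 0.08 in KLHL3-KI and 0.07 in WT pairs. Over all 16970 tested genes it was 0.16 and 0.14, and over the 413 tested genes averaging 300 or more 0.11 and 0.12. The libraries had been depleted of ribosomal RNA, and whether the depletion probes cover mitochondrial ribosomal RNA is not stated in the labels. Its part in these levels was not tested.

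Per kilobase of transcript, with copies added, the order of levels was nearly the same in both groups. mt-Co1 led with 4657 ± 184 per kilobase in KLHL3-KI and 4021 ± 241 in WT spleen (SD, n = 2 each). It was followed by mt-Co3, mt-Co2 and mt-Atp6, at 4000, 3724 and 3087 in KLHL3-KI and 3592, 3230 and 2732 in WT spleen. These 4 messengers did not overlap with each other within a group. mt-Nd4, mt-Nd1 and mt-Cytb lay close together, at 975, 932 and 884 per kilobase in KLHL3-KI and 836, 780 and 766 in WT spleen. Neighbours among these 3 overlapped in the KLHL3-KI libraries, and mt-Nd1 and mt-Cytb overlapped in the WT libraries too. At the bottom stood mt-Nd6, at 97.2 ± 1.54 per kilobase in KLHL3-KI and 69.3 ± 4.41 in WT spleen. mt-Atp8 stood there too, at 49.9 ± 4.98 and 38.1 ± 2.02. mt-Atp8 and mt-Atp6, and likewise mt-Nd4l and mt-Nd4, overlap with no transfer RNA gene between them. Their values per kilobase are levels of rows and may not be levels of separate RNAs. The part of read division in them was not tested. mt-Rnr1 was at 46.2 ± 7.996 per kilobase in KLHL3-KI and 47.0 ± 6.64 in WT spleen. mt-Rnr2 was at 2885 ± 602 and 2456 ± 158.

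The comparison of KLHL3-KI with WT spleen called 1 of the 15 rows, mt-Nd6. mt-Nd6 rose by 0.48 on the log2 scale (SE 0.11, limma adjusted p = 0.0109, higher in 2 of 2 KLHL3-KI libraries). Of all tested genes 22.8% passed in either direction, 15.2% higher and 7.56% lower, and 1 of 15 is a smaller share than these 22.8%. All 15 rows passed the filter on low values, mt-Co2 only through KLHL3-KI replicate 1. The call of mt-Nd6 was lost without WT replicate 2 (adjusted p = 0.107), without a variance trend (0.0548) and after quantile normalization (0.0577), within a range from 0.00610 to 0.107 over all alternatives. Its log2 fold change ran from 0.31 to 0.54. The kit keeps the strand, but the strand setting of the counting is not stated, so reads of mt-Nd6 and of RNA from the opposite strand cannot be told apart here.

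No other messenger passed. With copies added, all 13 messengers were above 0, from 0.09 for mt-Nd3 to 0.48 for mt-Nd6. Their median was 0.21, against a median of -0.01 over all tested genes, whose quartiles were -0.24 and 0.27. The 413 tested genes averaging 300 or more had a median of 0.04 and quartiles of -0.15 and 0.33. All 13 messengers also had both KLHL3-KI libraries above both WT libraries, as 32.8% of all tested genes did. The 13 are not independent observations, since all but mt-Nd6 are read from the same strand into long precursors. Of all tested genes 64.7% did not overlap in either direction, with 31.9% lower in the table as deposited. The log2 fold change was 0.26 (SE 0.09) for mt-Nd1, 0.25 (SE 0.10) for mt-Nd5, 0.22 (SE 0.10) for mt-Nd4 and 0.20 (SE 0.09) for mt-Nd2. It was 0.21 (SE 0.13) for mt-Co1 and 0.20 (SE 0.10) for mt-Cytb. In this group the lowest limma adjusted p was 0.0831, for mt-Nd1. mt-Atp8 was at 0.35 (SE 0.16), with an adjusted p of 0.161. The ribosomal RNAs were at 0.22 (SE 0.16) for mt-Rnr2 and -0.03 (SE 0.15) for mt-Rnr1, where limma gave an adjusted p of 0.358 and 0.922.

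The rows with copies gave other values before and after the addition. mt-Co3 stood at 1.45 (SE 0.60, limma adjusted p = 0.118) as deposited and at 0.15 (SE 0.12, limma adjusted p = 0.377) with its copy. The deposited mt-Co3 row passed without KLHL3-KI replicate 1 (limma adjusted p = 0.00171) and without WT replicate 2 (0.00255), and was at 0.23 without WT replicate 1, within a range from 2.67e-04 to 0.655. mt-Atp6 was at -0.24 (SE 0.12) as deposited and at 0.18 (SE 0.11) with its copy, a change of sign, for which limma gave an adjusted p of 0.169 and 0.273. The deposited mt-Atp6 row fell without KLHL3-KI replicate 2 (limma adjusted p = 0.0256) with equal total reads (0.0233) and after quantile normalization (0.0226), within a range from 0.0226 to 0.709. mt-Nd4l was at 0.37 (SE 0.13) as deposited and at 0.24 (SE 0.11) with its copy, where the deposited row passed without KLHL3-KI replicate 2 (limma adjusted p = 0.0433) and with a robust variance model (0.0460), in a range from 0.0433 to 0.330. mt-Co2 gave no interpretable fold change as deposited, since 3 libraries were at 0, and was at 0.21 (SE 0.11, limma adjusted p = 0.199) with its copy. After the addition mt-Nd6 was still the only call (adjusted p = 0.0108), where 22.9% of 16965 tested genes passed, 15.3% higher and 7.62% lower.

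**Figure D3:**
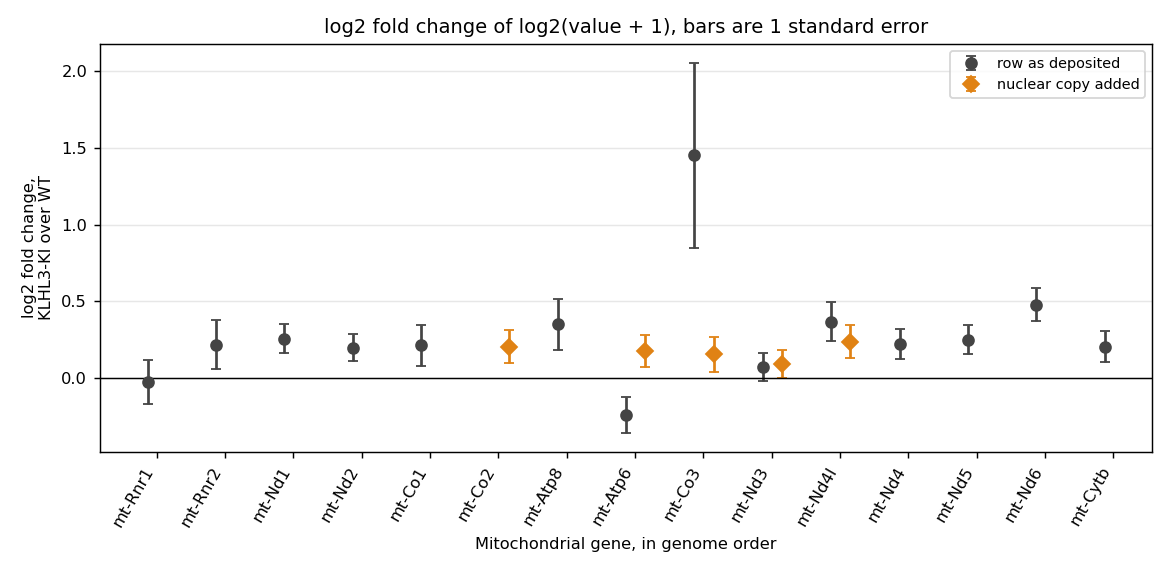
log2 fold change of KLHL3-KI over WT for each mitochondrial row as deposited (dark grey circles) and for the 5 genes with their nuclear copy added (orange diamonds), with bars of 1 SE; the deposited mt-Co2 row is left out because 3 of its libraries were at 0. The spread of mt-Co3 and mt-Atp6 to either side of the others closes to 0.15 and 0.18 with the copies added.

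The scaling decided how far the messengers as a group stood above 0. The 13 messengers and their copies summed to 20693 and 19497 in KLHL3-KI and to 17992 and 17000 in WT libraries, a ratio of 1.15. As a share of all recovered reads, the same rows took 1.96% and 1.83% in KLHL3-KI and 1.88% and 1.82% in WT libraries. The counting interval of each share was within 0.00912 percentage points, and the groups overlapped. With equal total reads in each library the median over the messengers was 0.04, and the median over all tested genes moved to -0.16. After quantile normalization these medians were 0.02 and -0.10. Of all tested genes 11.3% rose and 18.4% fell with equal total reads, and 12.1% rose and 14% fell after quantile normalization. With copies added, 11 of 13 messengers were above 0 with equal total reads and 8 of 13 after quantile normalization, against 13 of 13 in the authors' scaling. mt-Nd3 and mt-Co3 were below 0 under both, mt-Nd3 at -0.08 in each and mt-Co3 at -0.0144 and -0.0387. mt-Co1 was at 0 after quantile normalization, a scaling that gives a row of equal rank in all libraries the same value. The ribosomal RNAs took 0.501% and 0.369% of the reads in KLHL3-KI and 0.431% and 0.402% in WT libraries.

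Shares within the mitochondrial messenger pool do not depend on the scaling between libraries. mt-Nd6 made up 0.246% (95% Wilson interval 0.225 to 0.270%) and 0.256% (0.235 to 0.279%) of the messenger sum with copies in KLHL3-KI. It made up 0.209% (0.188 to 0.232%) and 0.202% (0.181 to 0.225%) in WT libraries. The groups did not overlap, while the counting interval of KLHL3-KI replicate 1 overlapped those of both WT libraries. For WT replicate 2 the limits were close, at 0.22499% in KLHL3-KI replicate 1 and 0.22504% in WT replicate 2. mt-Nd3 went the other way, at 2.37% and 2.40% in KLHL3-KI and at 2.56% and 2.59% in WT libraries. mt-Nd1 was at 4.43% and 4.45% in KLHL3-KI and at 4.25% and 4.28% in WT libraries. The values of mt-Nd5 and mt-Atp8 were also higher without overlap, and those of mt-Atp6 and mt-Co3 lower. Of all tested genes 64.7% did not overlap in either direction, by their normalized values and not by shares. The counting intervals of mt-Nd1, mt-Nd5, mt-Atp8, mt-Atp6 and mt-Co3 overlapped between the groups, and those of mt-Nd3 did not. mt-Co1 was at 35.7% and 35.9% in KLHL3-KI and at 36.0% and 35.0% in WT libraries, where the groups overlapped. The shares are given as values without a test, and an exact two-sided permutation test of 2 against 2 libraries could not go below p = 0.33. mt-Rnr2 relative to the messenger sum was at 25.3% and 20.0% in KLHL3-KI and at 22.6% and 21.8% in WT libraries.

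**Figure D4:**
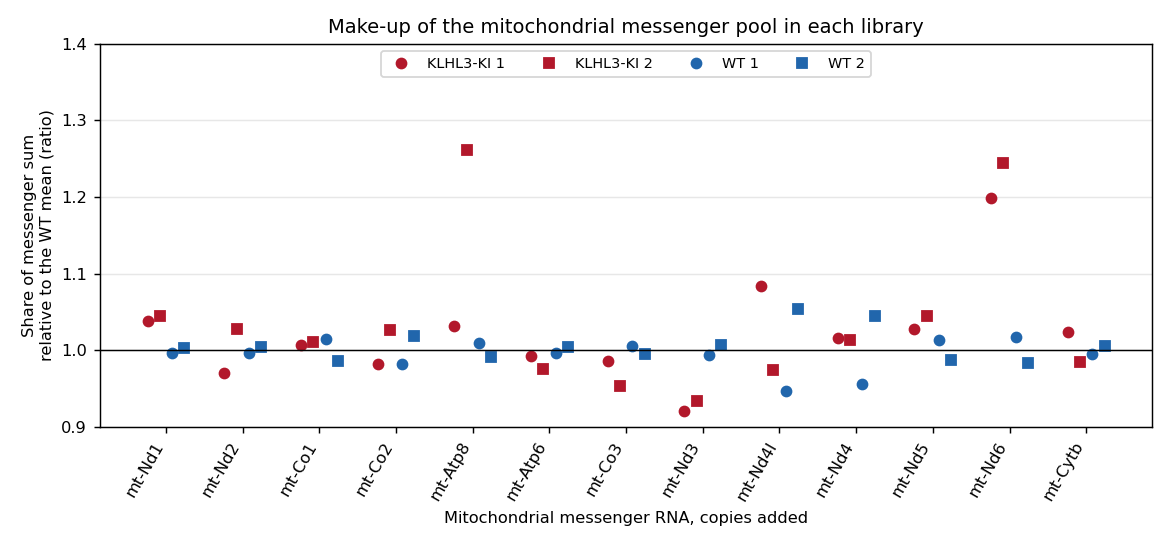
Share of each mitochondrial messenger in the summed messengers with copies, divided by its mean share in the 2 WT libraries, for each KLHL3-KI library (red) and each WT library (blue). mt-Nd6 lies above 1 in both KLHL3-KI libraries, at shares of 0.246% and 0.256%, and mt-Nd3 lies below 1 at 2.37% and 2.40%.

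Nuclear genes that read and process the mitochondrial chromosome are set beside the 15.2% of all tested genes that rose and the 7.56% that fell. Of 26 tested genes for its transcription and replication, 2 rose (7.69%) and 1 fell, with a median log2 fold change of -0.01. The RNA polymerase gene Polrmt was at -0.11 (SE 0.17), and the transcription factors Tfam and Tfb2m were at -0.02 (SE 0.11) and -0.11 (SE 0.13). The elongation factor Tefm was at -0.02 (SE 0.20). The exonuclease gene Mgme1 rose by 0.57 (SE 0.15), Mrpl12 rose by 0.54 (SE 0.16) and the ribonucleotide reductase subunit gene Rrm2b fell by 0.43 (SE 0.11). Their limma adjusted p was 0.0241, 0.0364 and 0.0171. Of 44 tested genes of mitochondrial RNA processing, modification and decay, 5 rose (11.4%) and none fell, with a median of 0.13. Lrpprc, whose protein stabilises mitochondrial messengers, rose by 0.39 (SE 0.12, limma adjusted p = 0.0457), and its partner Slirp was at 0.31 (SE 0.14) and did not pass. The ribosomal RNA methyltransferase gene Mrm1 rose by 0.65 (SE 0.14). Of 35 translation factors and aminoacyl-tRNA synthetases, 4 rose (11.4%) and 1 fell, with a median of 0.08. Without WT replicate 2 no gene of these 3 lists passed, and with equal total reads the counts that rose were 0, 1 and 3, where 8.2% and 11.3% of all tested genes rose.

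The nuclear partners of the mitochondrial subunits had higher log2 fold changes. Of all tested genes 15.2% rose in the same fit. Of 11 nuclear complex IV genes 11 rose, with a median of 0.49, where mt-Co1, mt-Co2 and mt-Co3 with copies were at 0.21, 0.21 and 0.15. Of 9 nuclear complex III genes 8 rose, with a median of 0.42, beside 0.20 for mt-Cytb. Of 16 nuclear ATP synthase genes 12 rose, with a median of 0.45, beside 0.18 for mt-Atp6 with its copy and 0.35 for mt-Atp8. These 16, which also enter the ATP synthase ratio below, include Atpif1, at 1.96 (SE 0.15). Atpif1 encodes the inhibitor of the enzyme and not a subunit. In complex I, 13 of 36 nuclear genes rose with a median of 0.34, and the 7 mitochondrial genes with copies had a median of 0.24. The ratio of the mitochondrial to the nuclear sum in complex IV, taken within each library, was 16.1 and 14.7 in KLHL3-KI and 19.1 and 18.3 in WT libraries. The ATP synthase ratio was 1.10 and 0.919 in KLHL3-KI and 1.29 and 1.297 in WT libraries. The complex III ratio was 2.12 and 1.75 in KLHL3-KI and 2.28 and 2.22 in WT libraries. All 3 ratios were lower in both KLHL3-KI libraries, while the complex I ratio overlapped, at 3.36 and 2.98 in KLHL3-KI and 3.36 and 3.57 in WT libraries. The difference between mitochondrial and nuclear genes was not tested. The erythroid precursor and dividing cell marker sums given above were higher in the same libraries, and their part in the nuclear genes or the ratios was not tested. Of 15 mitochondrial mass marker genes, among them the outer membrane channel gene Vdac1 at 0.76 (SE 0.11), 11 rose.
These counts changed when a library was left out and with scaling. Without WT replicate 2, 2 complex IV, 2 complex III, 5 ATP synthase, 1 complex I and 2 mass marker genes rose. Without WT replicate 1 these counts were 7, 1, 7, 3 and 8, and with equal total reads they were 8, 4, 8, 5 and 7. Without KLHL3-KI replicate 2 they were 9, 4, 8, 4 and 7. Over all tested genes 8.2%, 10.1%, 11.3% and 11.5% rose in these 4 settings.

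**Figure D5:**
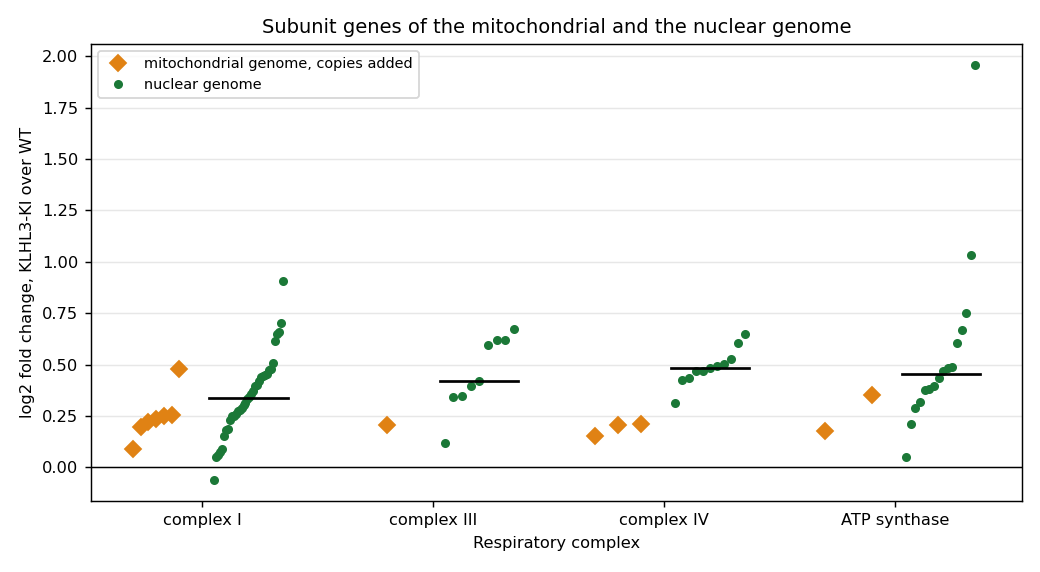
log2 fold change of KLHL3-KI over WT for the mitochondrial subunit genes with copies added (orange diamonds) and the nuclear genes of the same complex (green circles, black line at their median). The nuclear ATP synthase genes include the inhibitor gene Atpif1. In complex IV the 3 mitochondrial genes lie at 0.15 to 0.21 and the nuclear median at 0.49.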

How the data were processed

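Spleen RNA of 2 KLHL3-KI and 2 WT libraries was measured. Per the submitters' processing notes, Trimmomatic 0.38, Bowtie2, RSEM 1.3.0, edgeR and build GRCm39 were used, without their roles, the annotation or the strand setting. The authors deposited a normalized signal per gene, and 100% of values were whole multiples (within 0.001) of the smallest value of their library. These multiples were taken as reads. Whether they are observed reads or rounded estimates of the counting is not stated. Symbols came from GENCODE M21 (build GRCm38) for 23605 of 23763 identifiers.

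The 16970 genes averaging 1 or more were compared on log2(value + 1) by limma 3.58.1 in R 4.3.3, with a variance trend, two-sided tests and a Benjamini-Hochberg adjusted p under 0.05 over all of them. On simulated data this recovered 81% of 100 genes changed by 1 on the log2 scale among 16982 tested. The simulated spread between libraries was fixed and not estimated from these data. Changes as small as those of the messengers with copies added were not simulated. edgeR 4.0.16 (quasi-likelihood) and DESeq2 1.42.0 on the recovered reads were alternatives. Nuclear copies were found with BLAST 2.17.0 (at least 90% identity over 100 bases); those with a row were added to their mitochondrial gene after the values were seen. All mt- rows were named, with Klhl3, the 4 lowest p of each nuclear list and 6 set transcription and stability factors. Members and lists were chosen with earlier results of these data known. Precision is limited by 2 libraries per group.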

Additional observations from a re-analysis of the deposited data

How the results depend on the processing

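The height of the messengers over WT depended on scaling. The log2 ratio of the summed messengers was 0.22, against 0.0130 under quantile normalization, 0.0537 at equal total reads, 0.0546 at equal totals without mitochondrial transcripts. With copies added these were 0.20, -8.00e-05, 0.0316 and 0.0325. Quantile normalization gives a row of equal rank in all libraries the same value and put mt-Co1, the most abundant messenger, at 0. The sums under it were thus partly fixed in advance. The summed ribosomal RNAs were at 0.23, at -0.179 after quantile normalization and at 0.0625 with equal total reads. Without KLHL3-KI replicate 1 they were at -2.79e-04 and without KLHL3-KI replicate 2 at 0.428, so each of these libraries moves the value. Among the 15 deposited rows 1 rose and 0 fell. The counts of the alternatives also hold the deposited mt-Co2 row wherever it passed. That row, at 0 in KLHL3-KI replicate 2 and both WT libraries, reached a log2 fold change of 22.4, so its calls are not interpretable. The count that rose was 0 after quantile normalization or with no variance trend, 2 with a robust variance model or DESeq2 and 1 to 3 without a single library. The count that fell was 1, mt-Atp6, in each of the 3 scalings above, and 0 to 1 without a single library. With copies added, 0 rose after quantile normalization or with no variance trend, and 0 to 1 without a single library. The replicate differences of the groups were hardly correlated (r = -0.03 over 16970 genes, which are not independent). A single correlation cannot exclude a pairing or a shared batch. The replicate numbers come from the sample titles, do not all match the numbers in the library names, and are not stated to pair libraries. With the replicate block 4 deposited rows rose, mt-Nd6, mt-Co2, mt-Co3 and mt-Nd4l (limma adjusted p = 0.0473), and 1 with copies added.
The sign turned for mt-Rnr1 (-0.03) without KLHL3-KI replicate 2 (0.148) and without WT replicate 1 (0.116), its lowest value without a single library being -0.199. After quantile normalization it turned for mt-Rnr2 (-0.182), mt-Nd4 (-0.0266) and mt-Atp6 with its copy (-0.0931). In the scaling order given above, mt-Nd3 was at -0.0986, -0.0967 and -0.0959, and with its copy at -0.0817, -0.0784 and -0.0775. mt-Co3 with its copy was at -0.0387, -0.0144 and -0.0135.
Of all genes 3866 passed, 2583 higher and 1283 lower. With no variance trend 2462 passed. Without a single library 1653 to 4621 passed, 1385 to 2935 higher and 268 to 1686 lower. The lower count was 2371, 3126 and 3123 in the 3 scalings, 659 with no variance trend and 781 with DESeq2. Of the nuclear lists 68 genes rose and 2 fell. The count that rose was 38, 36 and 36 in the 3 scalings, 25 with no variance trend, 45 with DESeq2 and 12 to 78 without a single library. The count that fell was 5, 8 and 8 in the 3 scalings, 1 with no filter, 0 with no variance trend or DESeq2 and 0 to 3 without a single library. The cause of these changes was not tested. A single library left in a group is assumed to vary like the other group. mt-Atp8 rests on 72 to 112 reads a library, and the deposited mt-Co2 row on 0 reads in 3 libraries.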
